A study of Mus musculus with 2 samples.

Results

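The Mgp Mfap4 fibroblasts of the mouse mesentery are a small group of fibroblast barcodes with many transcripts of Mgp and Mfap4 together, most of them of Mgp. Single cells came from the whole mesentery of 2 untreated wild-type male C57BL/6N mice, an inbred strain, whose age at harvest is not stated. Cells were released with the collagenase mixture Liberase DH, and 1 library per mouse was made with version 2 of the Chromium 3′ chemistry, which counts unique molecular identifiers (UMIs) per gene. Both mice form 1 group, so every comparison lies between cells of the same 2 libraries.

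A barcode was a member if it had at least 200 genes, at most 10% mitochondrial UMIs, at least 10 UMIs summed over Dcn, Col1a1, Col1a2 and Col3a1, no Ptprc, at most 1 UMI of Msln plus Upk3b, at most 1 of Cdh5 plus Cldn5, fewer than 5 of Pi16, Igfbp5 and Dmkn together, and at least 8 of Mgp plus Mfap4. Of 3204 barcodes, 989 met the gate up to the endothelial step and are called gated fibroblasts (460 in mouse 1, 529 in mouse 2). The rule chose 105 of them, 54 in mouse 1 and 51 in mouse 2. Members were 11.7% of the gated fibroblasts in mouse 1 (exact 95% interval 8.94 to 15%) and 9.64% in mouse 2 (7.26 to 12.5%). The other 884 gated fibroblasts fell into 697 double-low barcodes, under both cuts, 182 Pi16-high barcodes, at or over the Pi16 cut only, and 5 at or over both cuts. The libraries shared 0 barcode sequences. Members were chosen by the raw UMIs of these genes, so the levels of these genes are a description.

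Matrix Gla protein, encoded by Mgp, is a small secreted protein that depends on vitamin K and keeps soft tissue and vessel walls from calcifying. MFAP4 is a glycoprotein of the microfibrils on which elastin is laid down, and lysyl oxidases then crosslink elastin and collagen. Fibroblasts of connective tissue differ in how much of this matrix they make, and Pi16 marks a widespread fibroblast state next to vessels and serous linings that is often described as a progenitor.

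**Figure D1:**
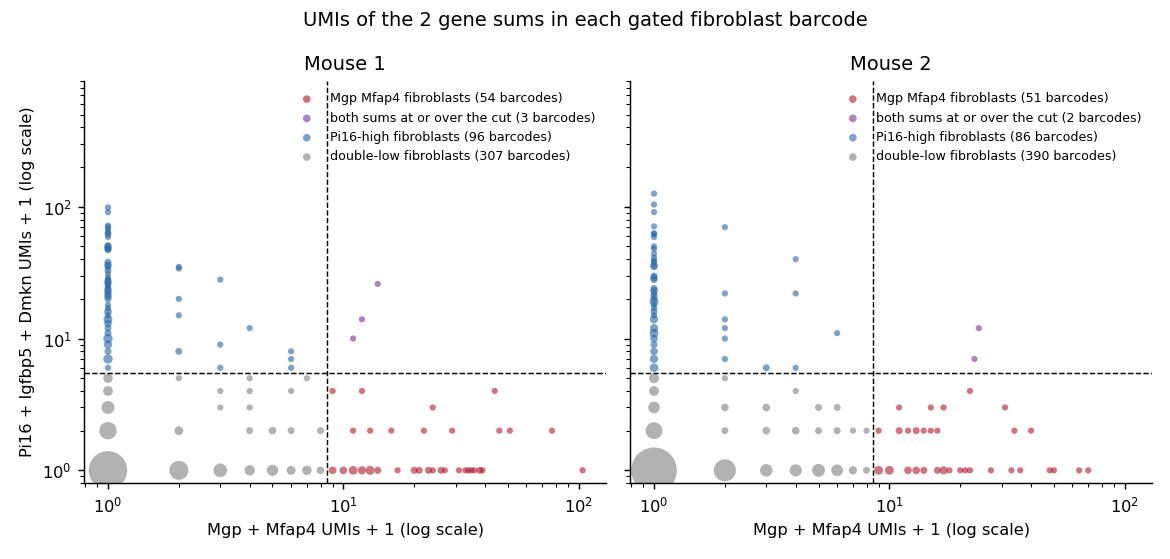
Mgp plus Mfap4 UMIs (x axis) against Pi16 plus Igfbp5 plus Dmkn UMIs (y axis) in each gated fibroblast barcode of mouse 1 and mouse 2, on log axes after adding 1. Dashed lines are the cuts at 8 and 5, larger points hold more barcodes, and the 54 and 51 members at the lower right run into the double-low barcodes without a gap.

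Summed members held 198890 UMIs in mouse 1 and 197389 in mouse 2, against 1535628 and 1520890 in the other gated fibroblasts, of 5137671 and 5563521 UMIs in the whole libraries. The median member had 3707 and 3608 UMIs, against 3645 and 3016 in the other gated fibroblasts and 3394 and 2767 in the double-low barcodes. Pi16-high barcodes were deeper, with medians of 4871 and 4738 UMIs. Median mitochondrial shares were 2.19 and 2.79% in members, against 2.36 and 2.64% in the other gated fibroblasts. A count of 0 allows a level of up to 15.1 and 15.2 UMIs per 1000000 (CPM) in members, against 1.95 and 1.97 CPM in the others. Intervals and limits of this kind cover counting error only. In what follows, pairs of values are mouse 1 and then mouse 2.

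Mgp alone carried most of the gate. It reached 8 UMIs by itself in 52 of 54 members and 46 of 51, whereas Mfap4 did so in 3 and 0, and Mfap4 was at 0 in 28 and 27 members. Mgp stood at 5501 and 4397 CPM in members, against 206 and 241 in the other gated fibroblasts. Mfap4 stood at 478 and 365 CPM in members, against 20.8 and 25.6 in the others. Mgp lies at chr6:136872435-136875823, minus strand, and Mfap4 at chr11:61485431-61488900, plus strand (GRCm38, GENCODE M21, which is the build named mm10). Per member, the sum of both genes had a median of 15.5 and 13 UMIs and ran up to 103 and 69.

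The other markers given for the group were present in a minority of it. Mmp3, a secreted protease that cleaves matrix proteins, was at 317 and 172 CPM in members, against 34.5 and 17.1 in the other gated fibroblasts, but only 12 and 6 members held a UMI, and 1 barcode held 70.6% of the UMIs in mouse 2. Tgfbi, an adhesion protein induced by TGF-β, was at 111 and 132 CPM in members, against 14.3 and 27 in the others, with a UMI in 11 and 15 members. Tgfbi reached 141 and 177 CPM in barcodes with Ptprc, the leukocyte gene CD45, so its level was not particular to the fibroblasts. The cut met no gap in the data. At 7 Mgp plus Mfap4 UMIs, just outside, there were 5 and 3 barcodes, and at 8, just inside, 4 and 6. Barcodes with 8 to 9 such UMIs had Eln at 464 and 465 CPM, against 444 and 795 with 6 to 7.

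The label of a fibroblast was set against marker lists of several cell types. Each of the 6 fibroblast markers outside the gate was present in members of both mice. The other 4 of the 10 are genes of the gate, so their presence was set by it. Of 8 mesothelial markers outside the gate, 7 and 8 were at 0 in members. The 10 pericyte and smooth muscle markers summed to 60.3 and 25.3 CPM in members, against 54.0 and 55.2 in the other gated fibroblasts, with 6 and 8 of them at 0 in members, Rgs5, Kcnj8 and Myh11 among those at 0 in both mice. The 8 cartilage and tendon markers summed to 70.4 and 35.5 CPM in members, against 65.8 and 63.8 in the others. All of it came from Sox9 and Fmod in members, while Acan, Col2a1, Chad, Scx, Tnmd and Comp were at 0. Fmod, the proteoglycan fibromodulin, was called higher, at 35.2 and 20.3 CPM in members, against 5.21 and 5.26 in the others (edgeR log2 fold change 2.39 with an SE of 0.65 and an adjusted p of 0.00794), from 7 and 4 UMIs in 4 and 3 members, a call lost without the filter on low counts and without the block on mouse described next. Leukocyte markers outside the gate summed to 95.5 and 426 CPM in members, against 369 and 533 in the other gated fibroblasts. Blood endothelial markers outside the gate summed to 30.2 and 55.7 CPM in members, against 9.12 and 21.0 in the others. Kdr, Emcn, Tie1 and Vwf were at 0 in members of both mice, whereas Flt1, 1 of the 2 tested, was called higher. A UMI of these markers was held by 9.26 and 15.7% of members, against 3.20 and 4.60% of the others. Lymphatic endothelial markers summed to 10.1 and 25.3 CPM in members, against 2.60 and 8.55 in the others. Adipocyte markers summed to 5.03 and 35.5 CPM, against 10.4 and 7.89, and Schwann or glial markers to 5.03 and 20.3, against 6.51 and 7.23. Lymphoid stroma markers summed to 151 and 35.5 CPM in members, against 97.0 and 105 in the others. The part of transcripts of these other cell types in the results below was not tested, except where a stricter gate is given.

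Against all other gated fibroblasts, members had more transcript of elastin (Eln), of fibulin-1 (Fbln1) and of lysyl oxidase (Lox), and less of fibronectin (Fn1) and of the hyaluronan synthases Has1 and Has2. Of 23 tested genes for proteoglycans and other matrix glycoproteins 11 were higher and 2 lower, and of 16 tested genes of the Pi16 state 13 were lower. edgeR's quasi-likelihood test on UMIs summed per mouse and group, with the mouse as a block and an adjusted p under 0.05, called 342 of 7118 genes (4.8%), 167 of them higher (2.35%) and 175 lower (2.46%), with the genes of the gate and Mmp3 and Tgfbi left out. Without the block on mouse the same test called 67 higher and 60 lower, and DESeq2's Wald test called 30 and 34. The gate's genes were first found by clustering the same barcodes, so these calls describe the group. With 1 value per mouse and group, edgeR took the spread in this fit wholly from all genes together (an infinite prior), so its p-values do not measure the spread of a single gene between the 2 mice and can be too small for a gene that varies more. In the fit with double-low and Pi16-high barcodes below, most of the spread was shared in this way, with 24.6 prior degrees of freedom.

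Set against the double-low barcodes, which are under both cuts, the same test called 159 of 5456 genes (2.91%), 76 higher (1.39%) and 83 lower (1.52%). DESeq2's Wald test called 30 and 27 of them. Against the Pi16-high barcodes it called 762 of 5456 (14.0%), 432 higher (7.92%) and 330 lower (6.05%), and DESeq2's Wald test 217 and 152. The Pi16-high sums rest on 182 barcodes and the double-low sums on 697. These comparisons share the members' sums, so their counts are not independent.

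**Figure D2:**
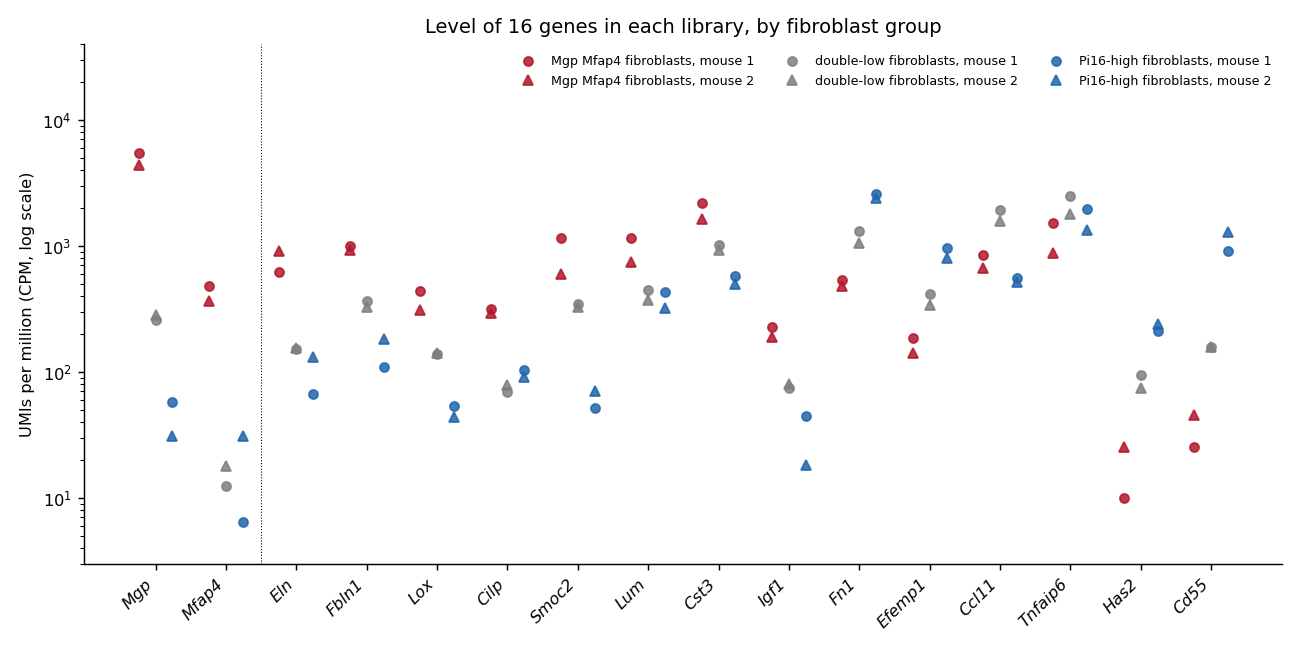
CPM (log axis) of 16 genes in Mgp Mfap4, double-low and Pi16-high fibroblasts, with circles for mouse 1 and triangles for mouse 2; genes left of the dotted line are part of the gate. Eln, Fbln1, Lox, Cilp, Smoc2, Lum, Cst3 and Igf1 lie higher in members than in both other groups in both mice, and Efemp1, Fn1, Has2 and Cd55 lower.

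Elastin had the largest fold change of the elastic fibre genes called against all other gated fibroblasts. Eln, which encodes the elastin precursor and lies at chr5:134702593-134747323, minus strand, was at 623 and 907 CPM in members, against 126 and 166 in the other gated fibroblasts (edgeR log2 fold change 2.40 with an SE of 0.15 and an adjusted p of 6.75e-55). Members of both mice lay above both values of the others. The difference from the double-low barcodes, which had 152 and 154 CPM, was of like size (edgeR log2 fold change 2.33 with an SE of 0.16 and an adjusted p of 1.05e-10). Eln had at least 1 UMI in 68.5% and 56.9% of members, against 27.8% and 25.1% of the others. After each barcode was thinned to 1500 UMIs, leaving out 1 and 1 members and 15 and 80 others, the shares were 50.9% and 46% in members, against 16.6% and 15.3% in the others and 0% and 0% in lymphocyte barcodes, which should lack it (median depth 1918 and 1893 UMIs).

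Fbln1, Lox, Mfap2 and Fbln2 were also higher than in double-low barcodes. Fbln1, fibulin-1, which binds elastin and fibronectin, was at 990.5 and 932 CPM in members, against 363 and 326 in double-low and 109 and 182 in Pi16-high barcodes (edgeR log2 fold change 1.50 with an SE of 0.15 and an adjusted p of 8.28e-08 against double-low). Lox, the lysyl oxidase that crosslinks elastin and collagen, was at 437 and 309 CPM in members, against 138 and 142 in double-low and 53.6 and 44.2 in Pi16-high barcodes (edgeR log2 fold change 1.42 with an SE of 0.18 and an adjusted p of 7.28e-06 against double-low). For both genes the member values lay above all 4 other values. Mfap2, a microfibril glycoprotein also called MAGP-1, was at 151 and 182 CPM, against 83.3 and 78.1 in double-low barcodes (edgeR log2 fold change 1.06 with an SE of 0.25 and an adjusted p of 0.0102). Fbln2, another fibulin, was at 1277 and 1307 CPM, against 924 and 822 (edgeR log2 fold change 0.58 with an SE of 0.12 and an adjusted p of 0.0039). The calls of Mfap2 and Fbln2 were lost with DESeq2's Wald test, and that of Fbln2 also without the block.

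Fbln7 had 17 and 12 UMIs in members and none in the Pi16-high barcodes. With a floor of 3 counts over the group, it was at least 20.8-fold higher in members. Against double-low it did not pass the test (edgeR log2 fold change 0.81 with an SE of 0.34 and an adjusted p of 0.284).

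Other members of the elastic fibre list went the opposite way. Efemp1, fibulin-3, was at 186 and 142 CPM in members, against 418 and 338 in double-low and 962 and 801 in Pi16-high barcodes (edgeR log2 fold change -1.19 with an SE of 0.18 and an adjusted p of 0.00011 against double-low). Every member value lay under the other 4. The microfibril scaffold genes differed by comparison group. Fbn1, fibrillin-1, was at 598 and 694 CPM in members, against 2679 and 3282 in Pi16-high (edgeR log2 fold change -2.13 with an SE of 0.14 and an adjusted p of 2.32e-12) and 879 and 849 in double-low barcodes (edgeR log2 fold change -0.41 with an SE of 0.14 and an adjusted p of 0.134), where it passed under 5 of the alternatives. Mfap5, its binding partner MAGP-2, was at 1056 and 765 CPM in members, against 2848 and 2814 in Pi16-high (edgeR log2 fold change -1.58 with an SE of 0.13 and an adjusted p of 4.78e-10) and 984 and 749 in double-low barcodes (edgeR log2 fold change 0.09 with an SE of 0.13 and an adjusted p of 0.871). Between these 2 comparisons, the lower values of Fbn1 and Mfap5 passed the test against the Pi16-high barcodes only, and whether the 2 differences themselves differ was not tested.

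Across the list, against all other gated fibroblasts 6 of 18 tested genes were higher and 3 lower, with a median log2 fold change of 0.19, against -0.01 over all genes tested. Against double-low barcodes 5 of 17 were higher (Eln, Fbln1, Lox, Mfap2, Fbln2) and 1 lower (Efemp1), with a median of 0.45. Against Pi16-high barcodes 8 were higher and 4 lower, with a median of 0.34. Fbln5, Efemp2, Loxl1, Loxl2 and Ltbp1 passed in none of the 3 comparisons. Loxl1, another lysyl oxidase, was at 659 and 481 CPM in members, against 417 and 400.5 in double-low barcodes (edgeR log2 fold change 0.49 with an SE of 0.14 and an adjusted p of 0.0648), and passed there under 5 of the alternatives. Fbln5, which tethers elastin to cells, was at 226 and 208 CPM in members, against 234 and 206 in the others (edgeR log2 fold change -0.01 with an SE of 0.19 and an adjusted p of 0.995).

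**Figure D3:**
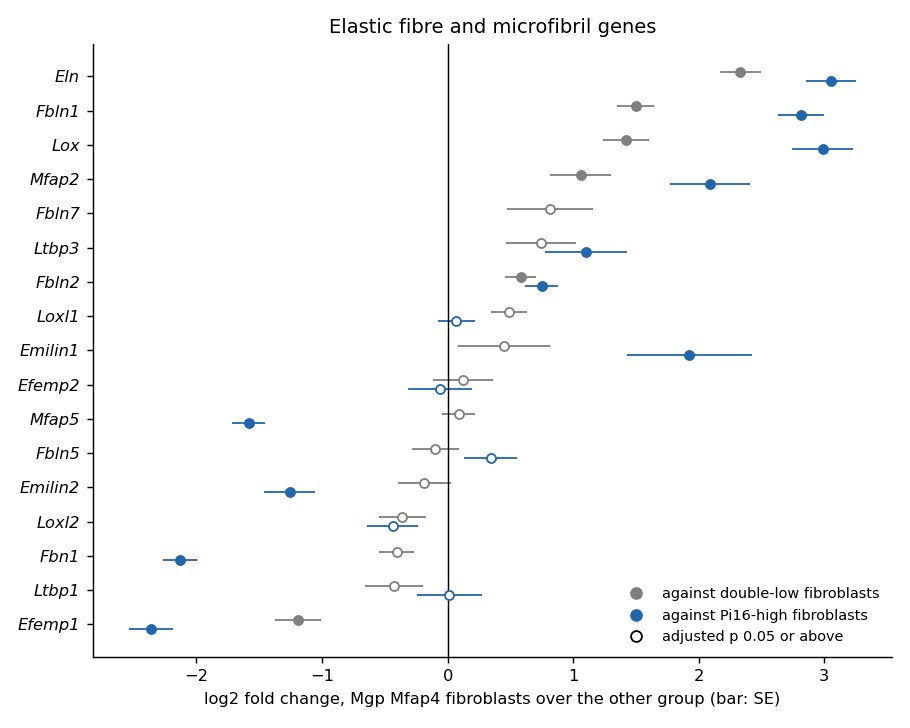
Log2 fold change with its SE of elastic fibre and microfibril genes in Mgp Mfap4 fibroblasts over double-low (grey) and over Pi16-high (blue) barcodes; open circles did not pass an adjusted p of 0.05, and Fbln7 over Pi16-high is left out because it was at 0 there. Eln, Fbln1, Lox, Mfap2 and Fbln2 lie to the right against both groups, Efemp1 lies to the left, and Fbn1 and Mfap5 fall far left only against Pi16-high.

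The gate's own Col1a1, the main fibrillar collagen chain, was at 2383 and 2493 CPM in members, against 1104 and 1511 in the other gated fibroblasts, and Col3a1 at 3947 and 4945, against 2745 and 3121; all groups were chosen with these genes. Of 14 tested collagens, 1 was higher than in double-low barcodes (Col8a1) and 2 lower (Col5a3, Col4a1), with a median log2 fold change of 0.00. Col8a1, a short-chain collagen of vessel walls, was at 146 and 101 CPM in members, against 46.4 and 30.2 in double-low barcodes (edgeR log2 fold change 1.70 with an SE of 0.28 and an adjusted p of 0.000254). Col8a1 was not called against Pi16-high barcodes. Its call against all other gated fibroblasts was lost with DESeq2, without the filter on low counts and without the block. That call was also lost with cuts of 5 and 12 and in barcodes of 2000 to 8000 UMIs. Col4a1, a basement membrane chain, was at 704 and 618 CPM, against 952 and 948 (edgeR log2 fold change -0.51 with an SE of 0.13 and an adjusted p of 0.0253), a call lost with DESeq2, without the block and with a cut of 5. Against Pi16-high barcodes 8 of 14 were higher and 2 lower, with a median of 0.92. Col15a1, a collagen of basement membrane zones, was at 327 and 233 CPM in members, against 34.3 and 13 in Pi16-high barcodes (edgeR log2 fold change 3.57 with an SE of 0.31 and an adjusted p of 9.14e-10), and at 218 and 222 in double-low barcodes. Col14a1 was lower, at 613 and 481 CPM in members, against 1689 and 1485 in Pi16-high barcodes (edgeR log2 fold change -1.47 with an SE of 0.14 and an adjusted p of 2.99e-09).

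Of 22 tested genes for small proteoglycans and other matrix glycoproteins, 7 were higher than in double-low barcodes and 2 lower (Fn1, Fgl2), with a median log2 fold change of 0.30, against -0.01 over all genes. Cilp, a cartilage intermediate layer protein that binds TGF-β, was at 317 and 294 CPM in members, against 69.1 and 78.1 in double-low barcodes (edgeR log2 fold change 2.06 with an SE of 0.20 and an adjusted p of 6.1e-08). Smoc2, a calcium-binding matricellular protein, was at 1146 and 598 CPM, against 349 and 328 (edgeR log2 fold change 1.35 with an SE of 0.16 and an adjusted p of 3.03e-06). Lum, the collagen-binding proteoglycan lumican, was at 1146 and 739.7 CPM, against 448 and 369 (edgeR log2 fold change 1.20 with an SE of 0.13 and an adjusted p of 6.56e-07). Both member values exceeded both double-low values for each of the 3, although mouse 1 stood well above mouse 2 for Smoc2 and Lum. Bgn, biglycan, was at 1946 and 1434 CPM in members, against 851 and 718 in double-low barcodes, and was among those called, with Sparcl1, Svep1 and Sparc. Fn1, fibronectin, moved the other way, at 538 and 476 CPM in members, against 1309.8 and 1049.5 in double-low and 2591 and 2406 in Pi16-high barcodes (edgeR log2 fold change -1.20 with an SE of 0.14 and an adjusted p of 1.33e-06 against double-low). Aspn, asporin, was lower than in all other gated fibroblasts, at 136 and 172 CPM, against 292 and 218 (edgeR log2 fold change -0.70 with an SE of 0.20 and an adjusted p of 0.014).

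Among proteases and their inhibitors, 4 of 25 were higher than in double-low barcodes (Ctsk, Cst3, Plat, Serpinf1) and 1 lower (Adamts5), with a median of 0.17. Cst3, cystatin C, which inhibits cysteine cathepsins, was at 2177 and 1631 CPM in members, against 1007 and 932 in double-low barcodes (edgeR log2 fold change 0.98 with an SE of 0.12 and an adjusted p of 3.3e-06). Ctsk, cathepsin K, which degrades collagen and elastin, was at 126 and 111 CPM, against 72 and 43.5 (edgeR log2 fold change 1.06 with an SE of 0.27 and an adjusted p of 0.0247), a call lost with DESeq2, without the filter on low counts, without the block and with a cut of 12. Adamts5, which cleaves aggrecan and versican, was at 156 and 248 CPM, against 387 and 378 (edgeR log2 fold change -0.91 with an SE of 0.19 and an adjusted p of 0.00327). So the inhibitor cystatin C and the protease cathepsin K were both higher, and the versican-cleaving protease lower. Aebp1, a collagen-binding protein that is also called ACLP, was at 1061 and 1322 CPM in members, against 405 and 482 (edgeR log2 fold change 1.44 with an SE of 0.13 and an adjusted p of 2.29e-08). It was not particular to fibroblasts, since barcodes with more than 1 UMI of Msln plus Upk3b had 2819 and 2666 CPM.

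Of 7 tested genes for hyaluronan and the proteins bound to it, none was higher than in double-low barcodes and 3 were lower (Has2, Tnfaip6, Ptx3), with a median log2 fold change of -0.62. Against all other gated fibroblasts 6 of 8 were lower, and against Pi16-high barcodes 5 of 7. Has2, a hyaluronan synthase, was at 10.1 and 25.3 CPM in members, against 93.8 and 74.6 in double-low and 212 and 239 in Pi16-high barcodes (edgeR log2 fold change -2.22 with an SE of 0.45 and an adjusted p of 0.00253 against double-low), from 2 and 5 UMIs in members. The description matrix-rich was thus met by Eln, Fbln1, Lox and several proteoglycans, and not by Fn1, Efemp1 or Has2. Nor was it met by the collagens as a list against double-low barcodes. There 1 of 14 was higher and 2 were lower, with a median of 0.00, whereas 8 were higher and 2 lower than in Pi16-high barcodes. Tnfaip6, TSG-6, which links hyaluronan to proteins, was at 1518 and 882 CPM, against 2477 and 1803 in double-low barcodes (edgeR log2 fold change -0.84 with an SE of 0.12 and an adjusted p of 4.81e-05), a call lost without the block. Vcan, the hyaluronan-binding proteoglycan versican, was at 70.4 and 147 CPM, against 279 and 312 in Pi16-high barcodes (edgeR log2 fold change -1.37 with an SE of 0.26 and an adjusted p of 0.000261), and double-low barcodes had 184 and 152. Ugdh makes the UDP-glucuronic acid used for hyaluronan. It was at 533 and 1180.4 CPM in members, against 2412 and 2307 in the other gated fibroblasts.

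The vitamin K cycle activates matrix Gla protein by carboxylating it. Of 4 tested genes of that list, Gas6 and Vkorc1 were higher than in all other gated fibroblasts. Gas6, itself a vitamin K-dependent ligand of TAM receptors, was at 196 and 193 CPM in members, against 98.5 and 115 in double-low barcodes (edgeR log2 fold change 0.88 with an SE of 0.21 and an adjusted p of 0.0139), a call lost with DESeq2, without the filter on low counts and without the block. Vkorc1, the reductase that recycles vitamin K, was at 272 and 253 CPM, against 189 and 155 in the others (edgeR log2 fold change 0.63 with an SE of 0.18 and an adjusted p of 0.0166), lost under the same 3 changes. Against double-low barcodes, which had 195 and 153 CPM, it did not pass the test (edgeR log2 fold change 0.61 with an SE of 0.18 and an adjusted p of 0.0721). Vkorc1 did pass there with cuts of 5, 12 and 20 per 10000 UMIs and with called doublets removed. Ggcx, the carboxylase, had 5 and 3 UMIs in members and did not pass the test (edgeR log2 fold change -0.14 with an SE of 0.59 and an adjusted p of 0.973).

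In the IGF and CCN list, 4 of 8 genes were higher than in double-low barcodes and 1 lower. Igf1, insulin-like growth factor 1, was at 226 and 187 CPM in members, against 73.9 and 79.9 in double-low and 45 and 18.2 in Pi16-high barcodes (edgeR log2 fold change 1.43 with an SE of 0.23 and an adjusted p of 0.000234 against double-low). Ctgf, the matricellular protein CCN2, was at 216 and 193 CPM, against 99.4 and 100.3 in double-low barcodes (edgeR log2 fold change 1.05 with an SE of 0.21 and an adjusted p of 0.00222), lost with DESeq2. Wisp2, CCN5, was at 70.4 and 91.2 CPM, against 2.84 and 6.22 (edgeR log2 fold change 4.11 with an SE of 0.55 and an adjusted p of 1.38e-05), but its 14 and 18 UMIs came from 7 and 10 members. Nov, CCN3, had 1 and 3 UMIs in members, at 5.03 and 15.2 CPM, against 87.1 and 73.7 in double-low and 210.0 and 177 in Pi16-high barcodes. Igfbp7, which binds IGFs and other ligands, was at 3927 and 3379 CPM, against 2950.0 and 2460.5 in double-low barcodes.

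**Figure D4:**
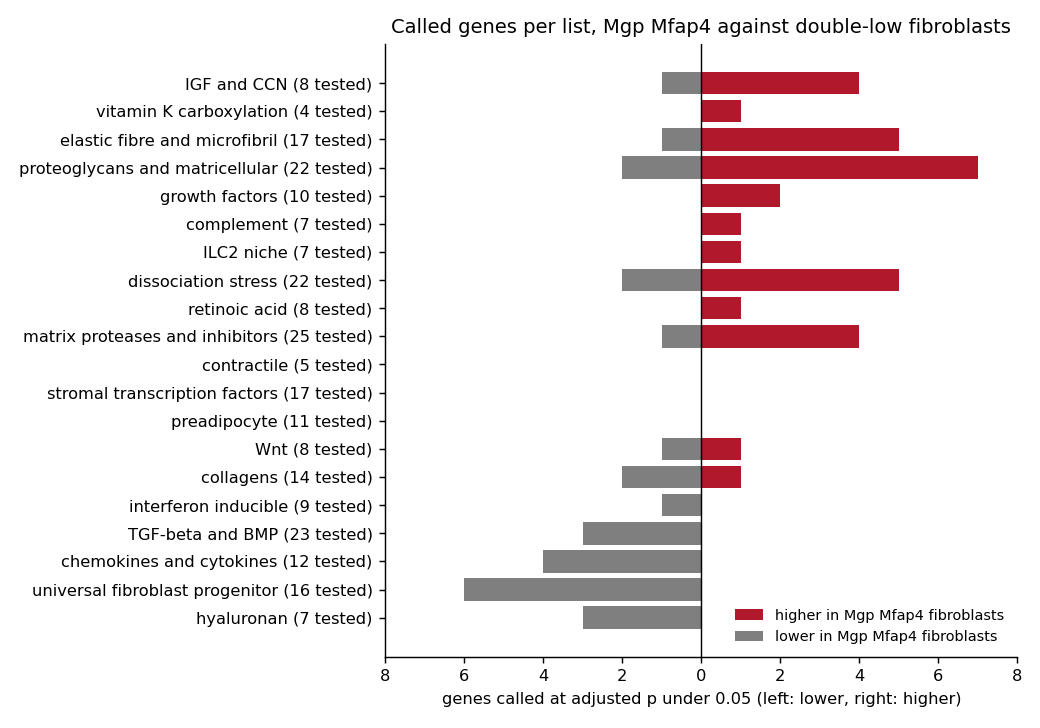
Number of genes per list called higher (right, red) or lower (left, grey) in Mgp Mfap4 fibroblasts than in double-low fibroblasts at an adjusted p under 0.05, with the number tested in brackets. The proteoglycan list has 7 of 22 higher and the elastic fibre list 5 of 17, whereas the hyaluronan list has 3 of 7 lower, the chemokine list 4 of 12 and the progenitor list 6 of 16.

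Of 23 tested TGF-β and BMP genes, none was higher and 3 lower than in double-low barcodes. Fst, follistatin, which blocks activin, was at 45.3 and 65.9 CPM in members, against 143 and 159 in double-low barcodes (edgeR log2 fold change -1.43 with an SE of 0.30 and an adjusted p of 0.00451), and Fstl1 was at 689 and 704 CPM, against 1028 and 1088 (edgeR log2 fold change -0.59 with an SE of 0.13 and an adjusted p of 0.0068). Bmp2 had only 2 and 3 UMIs in members, at 10.1 and 15.2 CPM, against 50.2 and 69.3 (edgeR log2 fold change -2.21 with an SE of 0.50 and an adjusted p of 0.00831). All 3 calls were lost with DESeq2, that of Fstl1 also without the block and that of Bmp2 with a cut of 12. Bmp4 was higher than in all other gated fibroblasts, at 50.3 and 55.7 CPM, against 20.8 and 16.4 (edgeR log2 fold change 1.52 with an SE of 0.45 and an adjusted p of 0.0208), a call lost without the filter on low counts, without the block and with stricter mesothelial, endothelial or leukocyte gates. In the Wnt list of 8 tested genes, Sfrp4 was higher and Rspo3 lower than in double-low barcodes. Sfrp4, a secreted Wnt antagonist, was at 85.5 and 45.6 CPM in members, against 18.9 and 26.6 (edgeR log2 fold change 1.52 with an SE of 0.39 and an adjusted p of 0.0247), a call lost with DESeq2, with a cut of 12 and with one of 20 per 10000 UMIs, and its direction turned with a stricter leukocyte gate.

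Of 12 tested chemokine and cytokine genes, none was higher and 4 were lower than in double-low barcodes, with a median log2 fold change of -0.22. Against Pi16-high barcodes 5 of the 12 were higher (Cxcl12, Cxcl16, Il6, Cxcl1, Ccl11) and none was lower, with a median of 0.78. Ccl11, eotaxin-1, which attracts eosinophils, was at 849.7 and 664 CPM in members, against 1927 and 1579 in double-low barcodes (edgeR log2 fold change -1.20 with an SE of 0.13 and an adjusted p of 3.67e-07). Its level in Pi16-high barcodes was under that of members, at 551 and 520.2 CPM. Cxcl14 was at 40.2 and 5.07 CPM, against 169.5 and 89.7 in double-low barcodes (edgeR log2 fold change -2.51 with an SE of 0.42 and an adjusted p of 0.000256). Ccl7 differed between the mice, at 3721 and 1961 CPM in members, against 4103 and 4536 in double-low barcodes (edgeR log2 fold change -0.62 with an SE of 0.15 and an adjusted p of 0.0163), so that its lower level came from mouse 2, and the call was lost with DESeq2, without the block and with a cut of 5. Il33, an alarmin for group 2 innate lymphoid cells, had 4 and 5 UMIs in members, at 20.1 and 25.3 CPM, against 135 and 122 in Pi16-high (edgeR log2 fold change -2.43 with an SE of 0.40 and an adjusted p of 4.19e-05) and 34.1 and 40.0 in double-low barcodes (adjusted p = 0.595, edgeR). Csf2 was called higher, but all of its 17 and 18 UMIs came from 1 member in each mouse.

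Complement genes were higher than in all other gated fibroblasts in 5 of 9 cases. None of 17 stromal transcription factors, none of 5 contractile genes and none of 11 preadipocyte genes was called in either direction against double-low barcodes. Over all genes 2.91% were called in this comparison, so lists of this size with no call lie near that share. In simulated data this comparison recovered 37% of 2-fold changes, so the lack of a call does not show that a list is unchanged. At this depth the contractile genes were few: Acta2 had 5.03 and 15.2 CPM in members.

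The genes of the Pi16 state were lower, in part by the gate, which removed barcodes with 5 or more UMIs of Pi16, Igfbp5 and Dmkn. Of 16 tested progenitor genes outside the gate, 13 were lower than in all other gated fibroblasts, with a median log2 fold change of -2.58, and all 16 were lower than in Pi16-high barcodes, with a median of -3.21, or -3.16 with Stmn4 at its bound. The double-low barcodes passed the same Pi16 cut, and against them 6 were lower (Stmn4, Smpd3, Cd55, Efhd1, Sema3c, Ly6c1), with a median of -1.10. Cd55, a complement-decay protein, was at 25.1 and 45.6 CPM in members, against 156 and 156 in double-low and 917 and 1290.1 in Pi16-high barcodes (edgeR log2 fold change -2.13 with an SE of 0.33 and an adjusted p of 0.000108 against double-low). Sphingomyelinase Smpd3 was at 20.1 and 55.7 CPM, against 204 and 237 in double-low barcodes (edgeR log2 fold change -2.52 with an SE of 0.34 and an adjusted p of 1.65e-05). Stmn4 had no UMI in members, and with a floor of 3 counts over the group it was at least 5.02-fold lower than in double-low barcodes. Dpp4, another marker of the state, was at 35.2 and 10.1 CPM, against 26.5 and 13.3 in double-low and 81.4 and 104 in Pi16-high barcodes.

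Among the genes named for the size of their fold against double-low barcodes, some were in no list. Fxyd6, a regulator of the sodium pump that lies at chr9:45370185-45396159, plus strand, was at 156 and 172 CPM in members, against 17 and 21.3 (edgeR log2 fold change 3.10 with an SE of 0.31 and an adjusted p of 8.48e-08). Gpnmb, a transmembrane glycoprotein, was at 126 and 177 CPM, against 36 and 48.8 (edgeR log2 fold change 1.85 with an SE of 0.26 and an adjusted p of 2.71e-05). Ackr4, a receptor that scavenges CCL19 and CCL21, was at 171 and 147 CPM, against 54.9 and 42.6 (edgeR log2 fold change 1.72 with an SE of 0.27 and an adjusted p of 0.000112). F2r, the thrombin receptor PAR1, was at 95.5 and 70.9 CPM, against 21.8 and 26.6 (edgeR log2 fold change 1.78 with an SE of 0.36 and an adjusted p of 0.00295). All 4 genes were higher in members of both mice than in double-low barcodes of either. Cpxm1, an inactive carboxypeptidase, was at 211 and 157 CPM, against 54.9 and 71 (edgeR log2 fold change 1.56 with an SE of 0.25 and an adjusted p of 0.000159). Among the lower genes were 2 of class II antigen presentation. Cd74, the invariant chain, had 3 and 0 UMIs in members, at 15.1 and 0 CPM, against 246 and 197 in double-low barcodes, and H2-Aa had 15.1 and 10.1 CPM, against 94.7 and 93.2 (edgeR log2 fold change -2.86 with an SE of 0.53 and an adjusted p of 0.00107). These are also leukocyte genes. The Cd74 call was lost with DESeq2, and where barcodes with more than 1 UMI over 10 leukocyte markers were removed from all groups. H2-Aa did not stay called under all 12 tested alternatives, some of which may not have tested it. Adgrg2, an adhesion receptor, had no UMI in members, and with a floor of 3 counts over the group it was at least 2.85-fold lower than in double-low barcodes, a call lost with a cut of 12. Cmah, a sialic acid hydroxylase, was at 10.1 and 10.1 CPM in members, against 58.7 and 47.9 in double-low barcodes (edgeR log2 fold change -2.36 with an SE of 0.53 and an adjusted p of 0.00831), a call lost with DESeq2. Abhd11os, Kat2b and Slc4a4 were also lower, with log2 fold changes of -2.72, -2.42 and -2.40, each from 1 or 2 UMIs per mouse in members, and each call was lost without the block and with a cut of 12. Abhd11os is named for the strand opposite Abhd11, and its reads may not all be its own.

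The promoters of the 3 named genes with the largest fold over all other gated fibroblasts among the 9 of 12 that have an entry are shown, because these genes were all higher in members. What sets their levels was not tested. Each runs from 250 bases before to 50 after the start in RefSeq's GRCm38.p6 annotation, 5′ to 3′ on the gene's strand. Capitals mark matches on either strand to 3 motifs, which do not overlap here. The AP-1 motif was searched as TGAGTCA. That of SP1 was searched as GGGCGG. The letters TATAAA stood for the core promoter box named after them. Fxyd6 is chr9:45369935-45370234 on the plus strand, Gpnmb chr6:49036268-49036567 on the plus strand and F2r chr13:95618417-95618716 on the minus strand.
Fxyd6: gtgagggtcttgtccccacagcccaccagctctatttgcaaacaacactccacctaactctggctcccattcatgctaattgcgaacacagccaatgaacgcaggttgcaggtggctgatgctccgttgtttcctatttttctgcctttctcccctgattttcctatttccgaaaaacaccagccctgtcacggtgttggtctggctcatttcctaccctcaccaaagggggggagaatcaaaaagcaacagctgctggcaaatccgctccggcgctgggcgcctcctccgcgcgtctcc
Gpnmb: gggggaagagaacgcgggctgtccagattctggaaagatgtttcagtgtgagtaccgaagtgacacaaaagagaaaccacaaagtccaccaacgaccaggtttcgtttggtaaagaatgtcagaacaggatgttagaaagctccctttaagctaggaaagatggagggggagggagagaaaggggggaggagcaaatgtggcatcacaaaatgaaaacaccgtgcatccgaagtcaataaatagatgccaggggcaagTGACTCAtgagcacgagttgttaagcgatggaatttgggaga
F2r: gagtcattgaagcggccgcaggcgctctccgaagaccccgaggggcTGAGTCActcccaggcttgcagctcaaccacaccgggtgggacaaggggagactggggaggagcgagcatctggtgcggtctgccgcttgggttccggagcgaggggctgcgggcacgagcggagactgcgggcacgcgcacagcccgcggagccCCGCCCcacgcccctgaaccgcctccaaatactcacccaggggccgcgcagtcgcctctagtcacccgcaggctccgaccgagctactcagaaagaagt
The AP-1 letters occur once in the Gpnmb window and once in that of F2r, and in no window of the other 7 genes of the 9. Among the 3 windows shown, the SP1 letters occur once, in that of F2r, and that of Fxyd6 holds none of the motifs. Of 32851 promoters of the same length, 5.20% hold the AP-1 letters, 35.7% those of SP1 and 13.6% the TATAAA letters. A match is a description of these letters only.

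Genes that can rise when tissue is digested were measured beside these results. This dissociation stress list holds immediate early and heat shock genes, the metallothionein genes Mt1 and Mt2, and others. Of 22, 5 were higher than in double-low barcodes (Jun, Fos, Ier3, Atf3, Fosb) and 2 lower (Mt2, Mt1), with a median log2 fold change of 0.06. Against Pi16-high barcodes 13 of 22 were higher, Mt1 and Mt2 among them, and 1 was lower (Nr4a1), with a median of 0.81. Jun was at 925 and 1388 CPM in members, against 489 and 538 (edgeR log2 fold change 1.19 with an SE of 0.17 and an adjusted p of 2.77e-05), and Fos at 1518 and 2604 CPM, against 1082 and 1066 (edgeR log2 fold change 0.94 with an SE of 0.15 and an adjusted p of 0.000144). The summed share of the list per barcode had a median of 4.04 and 4.45% in members, against 4.60 and 4.85% in double-low and 2.47 and 1.72% in Pi16-high barcodes. The part of dissociation in the differences was not tested.

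Among the 802 gated fibroblasts under the Pi16 cut, the levels of genes outside the gate were read by the number of Mgp plus Mfap4 UMIs, on both sides of the cut. Eln stood at 116 and 81.4 CPM in barcodes with 0 such UMIs (203 and 261), 363 and 519 with 4 to 7 (33 and 41), 349 and 789 with 8 to 15 (27 and 31) and 1271 and 1226 with 32 or more (12 and 8). Fbln1 stood at 256 and 222, 743 and 734, 818 and 854 and 1453 and 1191 CPM in the same bins. Both genes were already well above their level at 0 in barcodes just under the cut. Lox stood at 126 and 120.0 CPM at 0 and 726 and 526 at 32 or more, and Fn1 at 1568 and 1182 and 454 and 420.5. The top bins hold few barcodes, so these values are a description without a test.

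**Figure D5:**
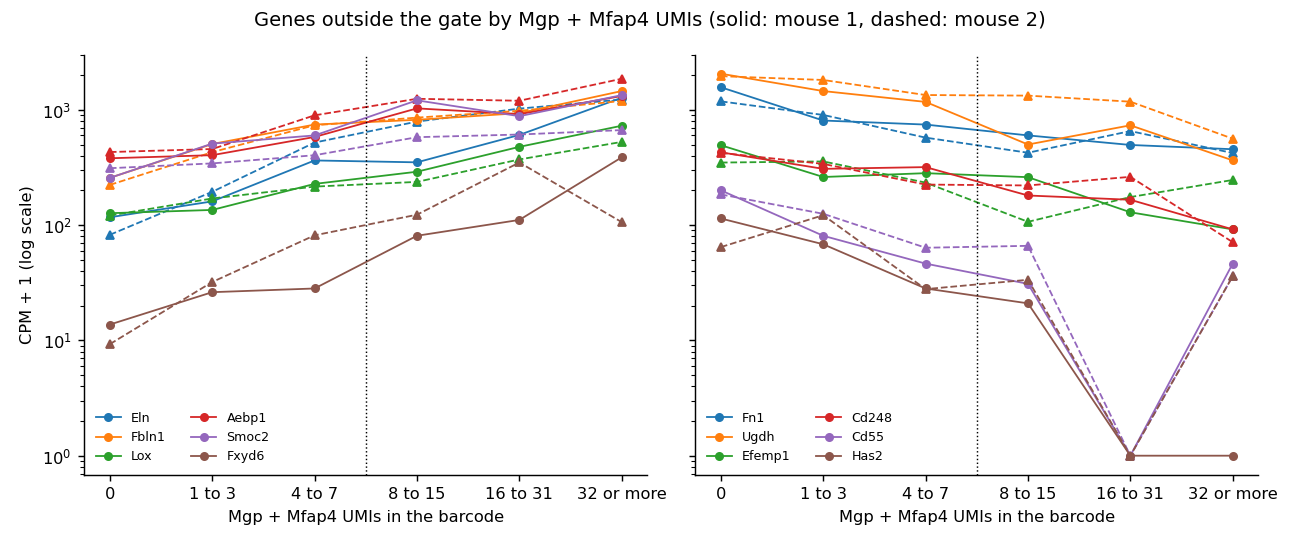
CPM plus 1 (log axis) of 12 genes outside the gate in barcodes under the Pi16 cut, by their Mgp plus Mfap4 UMIs, with solid lines for mouse 1, dashed lines for mouse 2 and a dotted line at the cut. Eln, Fbln1, Lox, Aebp1 and Smoc2 lie higher and Fn1 and Ugdh lower at 32 or more UMIs than at 0 in both mice, and Eln and Fbln1 already lie above their level at 0 just left of the cut.

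Other cell classes of the same libraries set the levels in scale. Eln was at 623 and 907 CPM in members, against 117 and 67.9 in barcodes with more than 1 UMI of Msln plus Upk3b and 27.5 and 26.3 in those with more than 1 of Cdh5 plus Cldn5. Fbln1 was at 990.5 and 932 CPM in members, against 569.7 and 517 in mesothelial-gate barcodes, and Mgp itself was at 631 and 450.2 in these. Gas1, a receptor for GDNF-family and hedgehog signals, was at 417 and 461 CPM in members, against 813 and 967 in mesothelial-gate barcodes. Of these genes Gas1 was the 1 with a higher level in mesothelial-gate barcodes than in members.

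Pdgfra and Pdpn, surface markers of fibroblasts in general, did not pass the test against all other gated fibroblasts. Pdgfra, the PDGF receptor α, was at 277 and 334 CPM in members, against 214 and 239 in the other gated fibroblasts (edgeR log2 fold change 0.45 with an SE of 0.17 and an adjusted p of 0.129), and Pdpn, podoplanin, at 166 and 152 CPM, against 184 and 256 (edgeR log2 fold change -0.44 with an SE of 0.20 and an adjusted p of 0.275). Pdgfra passed against Pi16-high barcodes (edgeR log2 fold change 1.06 with an SE of 0.20 and an adjusted p of 0.000252), and against all others with a cut of 20 per 10000 UMIs.

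Of 75 named genes called against all other gated fibroblasts, 29 stayed called in the same direction under each of 12 tested alternatives, 15 higher (among them Eln, Fbln1, Lox, Cilp, Smoc2, Fxyd6, Gpnmb, Ackr4, Cpxm1, Fmo2, Igf1, Cst3, Serpinf1 and Jun) and 14 lower. Against double-low barcodes 29 of 63 did, 18 higher and 11 lower (Ccl11, Efemp1, Has2, Iigp1, Adamts5, Fn1, Stmn4, Nov, Smpd3, Cxcl14 and Cd55).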

How the data were processed

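Single-cell RNA was sequenced from the mesentery of 2 mice. The authors deposited UMI counts that were not normalized (whole numbers for each gene in each barcode, per the file headers). The submitters' processing notes name Cell Ranger, without a version, and the build mm10. The barcode suffix, 1 or 2, was taken as the number of the mouse.

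Raw counts were summed per mouse and group. edgeR 4.0.16 (R 4.3.3) fitted quasi-likelihood models with TMM factors, filterByExpr and the mouse as a block, since the same animal gave both groups; adjusted p-values are Benjamini-Hochberg over all genes tested. 1 fit compared members with all other gated fibroblasts, and another held members, Pi16-high and double-low sums; the barcodes over both cuts, under 10 per mouse, were left out of it. SE is the absolute log2 fold change over the square root of F. CPM is UMIs per 1000000 of the summed group. The fits were tested on simulated data. DESeq2 1.42.0 was an alternative. Of 283 values of named genes, its Wald test kept the outcome of 184 and lost the call of 67. It gave no adjusted p for the rest, so a call not listed as lost with DESeq2 may be untested there. Doublets were not removed; Scrublet (scanpy 1.11.5) called 39 and 4 barcodes, 1 of them a member, so the second rate is under 0.5%.

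Members, gene lists and tests were chosen with earlier results of these data known. Named genes were the 12 with the largest fold in each direction per comparison (average log2 CPM at least 5, same direction in both mice), up to 4 called genes per list, all elastic fibre, vitamin K and innate lymphoid niche genes tested, and Pdgfra and Pdpn; other genes named were chosen after their values were seen. Some genes that this rule names are not reported here. Lists held 372 genes in 20 lists; symbols without exactly 1 row in the matrix were left out. Positions are from GENCODE M21 by Ensembl ID. The alternatives were normalization, test, filter, block, cuts, depth window, doublets, gates and leaving out a mouse.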

Additional observations from a re-analysis of the deposited data

How the results depend on the processing

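Counts of called genes depended on how the spread was modelled. Against all other gated fibroblasts, 167 genes higher and 175 lower became 30 and 34 with DESeq2's Wald test, 67 and 60 without the replicate block on mouse, and 83 and 83 with a cut of 12 on Mgp plus Mfap4, and 98 genes were higher without the filter on low counts. All 64 genes called by the Wald test and all 127 called without the block were among the 342 called with it, in the same direction. Against Pi16-high barcodes the Wald test gave 217 and 152. Against double-low barcodes it gave 30 and 27, the lower calls were 151 without the filter and 42 without the block, and 136 were higher with a cut of 20 per 10000 UMIs. The members' mean share over both mice was 10.7%, and 15% with a cut of 5, 7.03% with 12 and 12.8% with 20 per 10000 UMIs; leaving out a mouse gave 9.64 to 11.7%. Leaving out a mouse leaves a value with no test. Against all other gated fibroblasts Ccl7 ran from a log2 fold change of -1.03 in mouse 2 alone to 0.0017 in mouse 1 alone, and Sfrp4 turned to -0.46 against double-low barcodes where leukocyte markers summed to at most 1, an alternative chosen after seeing the data; the cause was not tested. Shares of barcodes with a UMI were lower after thinning to 1000 UMIs and higher with none, by construction. With 105 members, 1 UMI in a mouse is about 5 CPM, and a gene with a count of 0 in members could stand at up to 15.1 or 15.2 CPM.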
